A study of Mus musculus with 10 samples.

Results

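The 89 genes described here encode the proteins of the cytosolic ribosome and their close relatives. They were taken from the 28185 rows of the expression table as genes annotated protein-coding in GRCm39 with a symbol that starts with Rpl or Rps and goes on with a digit. Rpsa, Rplp0, Rplp1 and Rplp2 were added, and the ribosomal S6 kinases and pseudogene symbols were left out. Of the 89 members, 77 encode core ribosomal proteins, 46 of the large 60S subunit and 31 of the small 40S subunit. The others were 7 paralogues, the 4 retrogenes Rpl27rt, Rpl35rt, Rps27rt and Rps23rg1, and Rps19bp1, which carries a ribosomal symbol but encodes a protein that binds Rps19.

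RNA was sequenced from neutrophils of male C57Bl/6J mice aged 12 to 16 weeks. Every mouse had the left coronary artery ligated to cause a myocardial infarction (MI), and cells were taken on day 3, so no library comes from an uninjured animal. The groups were cardiac neutrophils without treatment (MI, libraries 13, 19 and 20), cardiac neutrophils after mesenchymal stromal cells (MI+MSC, libraries 15, 17 and 18), blood neutrophils without treatment (Blood, libraries 21 and 22) and blood neutrophils after MSC (Blood+MSC, libraries 23 and 24). The MSC were syngeneic bone marrow cells, given under the skin soon after ligation as 1000000 cells at each of 3 sites. Cells were enriched on magnetic beads against Ly6G, a surface protein of mouse neutrophils, after digestion of the left ventricle below the ligature and lysis of red cells in the cardiac suspension. The library names carry a code for the group and name no batch, so a batch that followed the groups could not be told apart from them. The labels do not tie each library to an animal, and p-values measure the spread between these libraries.

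The libraries were of very unequal depth, from 148594 reads in MI 13 and 268860 in Blood 21 to 8602711 in Blood+MSC 24. Blood 21 also stood apart in content: 11 platelet marker genes summed to 16280 RPM (reads scaled to a library total of 1000000) there, compared to 645.9 in Blood 22 and at most 1173 in any other library. MI 13 correlated with MI 19 and MI 20 at r = 0.733 and 0.707 over all genes tested (log2 scale), compared to 0.968 between those libraries. The Ly6g gene itself was low in the heart, at 4.7 to 26.9 normalized counts in the 6 cardiac libraries, 41.2 to 57.0 in Blood+MSC, 198 in Blood 21 and 645 in Blood 22. The summed neutrophil markers reached 2187 to 9894 RPM in the heart and 12180 to 29090 in blood. The sum of 15 monocyte and macrophage markers was 5256 to 19530 RPM in the heart and 8207 to 13980 in blood. It lay above the neutrophil sum in every cardiac library and below it in every blood library. Cardiomyocyte markers reached 2501 to 21370 RPM in the heart and at most 59.51 in blood. In such bulk samples fewer cells of a type and less RNA per cell cannot be told apart, and results that rest on Blood 21 are given with and without it.

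Each ribosome is built from a 40S subunit, which reads the mRNA, and a 60S subunit, which joins amino acids, and each subunit holds a nearly fixed set of proteins around ribosomal RNA. Most of these proteins are encoded by a single active gene, are needed in equal amounts, and come from short mRNAs that belong to the most abundant in many cells. Many of these mRNAs start with a C followed by a run of pyrimidines, the 5′ terminal oligopyrimidine (TOP) motif, through which the kinase mTORC1 and the RNA-binding protein Larp1 set their translation. Mature neutrophils are short-lived cells that make much of their protein content in the bone marrow.

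The annotated start of the mRNA is shown for 11 members that the results turn on, from RefSeq with the coordinates of GRCm38.p6. Each sequence holds 15 bases before the annotated start and 15 bases from it, so that the start is the base at position 16. Capitals mark a C followed by at least 4 bases that are each C or T. Only a run that begins within 5 bases of the start is marked, the first from the upstream side. Runs that begin further away, as in Rps7, are left unmarked. Rpl38, Rps21, Rplp2, Rps27, Rpl9 and Rps7 were among the members that were low in the heart, Rps2, Rplp0, Rpl41 and Rpl13a were among those that were not, and Rps18 is a common reference gene for PCR.
Rpl38 (chr11:114668565-114668594, plus strand): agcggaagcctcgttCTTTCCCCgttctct
Rps21 (chr2:180257364-180257393, plus strand): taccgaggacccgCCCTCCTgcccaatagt
Rplp2 (chr7:141447636-141447665, plus strand): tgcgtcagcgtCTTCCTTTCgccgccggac
Rps27 (chr3:90213634-90213663, minus strand): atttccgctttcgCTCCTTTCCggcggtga
Rpl9 (chr5:65391417-65391446, minus strand): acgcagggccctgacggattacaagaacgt
Rps7 (chr12:28635939-28635968, minus strand): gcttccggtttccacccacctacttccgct
Rps2 (chr17:24720048-24720077, plus strand): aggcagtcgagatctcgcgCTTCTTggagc
Rplp0 (chr5:115559452-115559481, plus strand): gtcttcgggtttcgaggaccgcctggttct
Rpl41 (chr10:128549154-128549183, minus strand): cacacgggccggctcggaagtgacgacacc
Rpl13a (chr7:45128731-45128760, minus strand): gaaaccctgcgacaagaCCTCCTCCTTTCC
Rps18 (chr17:33955651-33955680, minus strand): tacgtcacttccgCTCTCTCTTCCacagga

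Low members with such a run within 5 bases of the start and without one are both shown, and so are members of the other kind. Rps21 has another annotated start, within chr2:180257434-180257463, that holds no run. A C followed by at least 4 bases that are each C or T, on the sense strand, stood exactly at the annotated start in 13 of the 57 core members present in the RefSeq table (22.8%), compared to 3.0% of its 27025 genes. Within 5 bases of the start it was present in 27 of the 57 (47.4%) and in 21.2% of all genes. Among the 9 other members in the table, 1 (11.1%) held it at the start and 4 (44.4%) within 5 bases. These letters describe annotated starts and not the starts used in these cells.

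Reads on the 89 genes took a small part of every library. Their share of all reads was 1.07%, 1.16% and 1.19% in the MI libraries, 1.27%, 1.09% and 1.35% in MI+MSC, 0.737% in Blood 21, 1.97% in Blood 22, and 1.67% and 2.07% for Blood+MSC. The 6 cardiac libraries averaged 1.19% ± 0.107 (SD, n = 6), below each of the 3 deeper blood libraries, while Blood 21 lay below every cardiac library. The 95% Wilson interval was 1.02% to 1.13% for the shallowest library, MI 13, and 0.705% to 0.77% for Blood 21, so that counting error did not bridge these gaps. Such intervals, and the floors given further on, cover counting error only. The ratio of 60S to 40S reads was 1.49 to 1.57 in the heart, 1.35 to 1.45 in Blood 22 and Blood+MSC, and 1.95 in Blood 21.

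**Figure D1:**
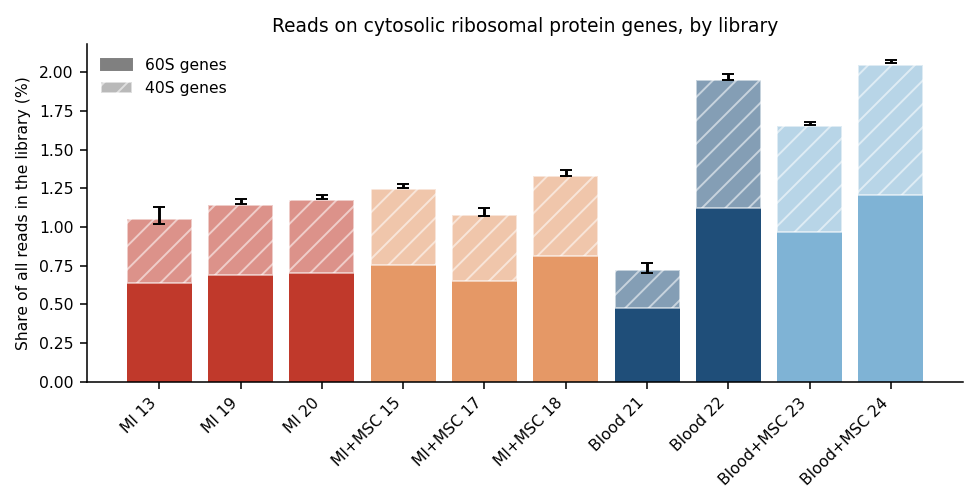
Share of all reads of a library (%, vertical axis) that fell on the cytosolic ribosomal protein genes in each of the 10 libraries, with the 60S and 40S parts stacked in each bar and 95% Wilson intervals. The cardiac libraries sit between 1.07% and 1.35%, Blood 21 at 0.737% and the other blood libraries between 1.67% and 2.07%.

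Within this sum the members did not move together. Some were as high in the heart as in blood, and others nearly disappeared from the heart, so that the composition of the ribosomal protein mRNA differed between libraries. Rplp0, Rplp1 and Rplp2 encode the P stalk, the arm of the 60S subunit that calls elongation factors to the ribosome, and show both patterns. Rplp0, the stalk's base (GRCm39, chr5:115694515-115701793), had normalized counts of 924, 1124 and 1049 in the MI libraries, 1231, 1134 and 1224 with MSC in the heart, 1017 in Blood 21, 1022 in Blood 22, and 724 and 862 for Blood+MSC. Rplp1 had 698, 682 and 692 in the MI libraries, 833, 774 and 844 with MSC in the heart, 883 in Blood 21, 618 in Blood 22, and 520 and 537 for Blood+MSC. Both genes were thus near the same level in all 10 libraries, and both were higher in every MI+MSC library than in any Blood+MSC library. Rplp2, which pairs with Rplp1 on the stalk, had 33.6, 36.5 and 43.7 in the MI libraries, 28.4, 23 and 25.8 with MSC in the heart, no read in Blood 21, 277 in Blood 22, and 253 and 260 for Blood+MSC. Every cardiac library held less Rplp2 than each of the 3 deeper blood libraries, and the absence of reads in Blood 21 allows up to 21.2 normalized counts (3 reads). Without Blood 21, Rplp2 was lower in MI than in Blood by 2.81 ± 0.30 (log2 fold change ± SE, limma adjusted p = 0.000273), while Rplp0 differed by 0.01 ± 0.40 (limma adjusted p = 0.987).

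Among the small subunit proteins, Rps29, a zinc-binding protein at the head of the 40S subunit (chr12:69204495-69205960), had 8.4, 4.8 and 3.6 normalized counts in the MI libraries, 6.8, 6.9 and 5.4 with MSC in the heart, 21.2 in Blood 21, 380 in Blood 22, and 263 and 272 for Blood+MSC. The cardiac values rest on 1 to 10 reads each, and the 3 reads of Blood 21 place it between the heart and the other blood libraries. Rps21, another small 40S protein, had 33.6, 2.9 and 4.6 in the MI libraries, 6.1, 13.8 and 7.5 with MSC in the heart, no read in Blood 21, 389 in Blood 22, and 248 and 236 for Blood+MSC. Rps7, which also binds Mdm2, had 25.2, 18.3 and 31.9 in the MI libraries, 30.4, 20.7 and 35.3 with MSC in the heart, 14.1 in Blood 21, 652 in Blood 22, and 475 and 529 for Blood+MSC. For these 3 genes the heart and the 3 deeper blood libraries were far apart with no overlap. Rps2, a protein at the mRNA entry site, went the other way, with 1059, 1040 and 1053 in the MI libraries, 1194, 1091 and 1182 with MSC in the heart, 608 in Blood 21, 646 in Blood 22, and 501 and 589 for Blood+MSC. Every cardiac library lay above every blood library for Rps2.

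Among the large subunit proteins, Rpl38 (chr11:114559350-114563166), known for a role in the translation of Hox mRNAs, had 8.4, 5.8 and 4.1 normalized counts in the MI libraries, 7.4, 11.5 and 4.7 with MSC in the heart, no read in Blood 21, 325 in Blood 22, and 224 and 223 for Blood+MSC. Rpl37a, a zinc-binding 60S protein, had 16.8, 21.1 and 12.4 in the MI libraries, 25, 18.4 and 27.8 with MSC in the heart, 7.1 in Blood 21, 622 in Blood 22, and 396 and 387 for Blood+MSC. Rpl41, which encodes the shortest protein of the ribosome, had 1185, 1180 and 1102 in the MI libraries, 1494, 1460 and 1253 with MSC in the heart, 2982 in Blood 21, 1021 in Blood 22, and 694 and 615 for Blood+MSC. Rpl38 and Rpl37a were low in every cardiac library and in Blood 21, whereas Rpl41 was highest in Blood 21 and lowest in Blood+MSC. Rpl5 and Rpl11 bind 5S ribosomal RNA and, outside the ribosome, Mdm2. Rpl11 had 25.2, 31.7 and 36.5 in the MI libraries, 37.2, 41.3 and 40 with MSC in the heart, 14.1 in Blood 21, 288 in Blood 22, and 226 and 259 for Blood+MSC. Rpl5 had 202, 173 and 197 in the MI libraries, 204, 186 and 233 with MSC in the heart, 113 in Blood 21, 403 in Blood 22, and 334 and 386 for Blood+MSC. The difference between heart and the deeper blood libraries was thus larger for Rpl11 than for its partner: without Blood 21, MI was lower than Blood by 3.15 ± 0.31 on the log2 scale for Rpl11 (limma adjusted p = 0.000178) and by 1.08 ± 0.30 for Rpl5 (limma adjusted p = 0.0232), although the difference between the genes was not tested.

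**Figure D2:**
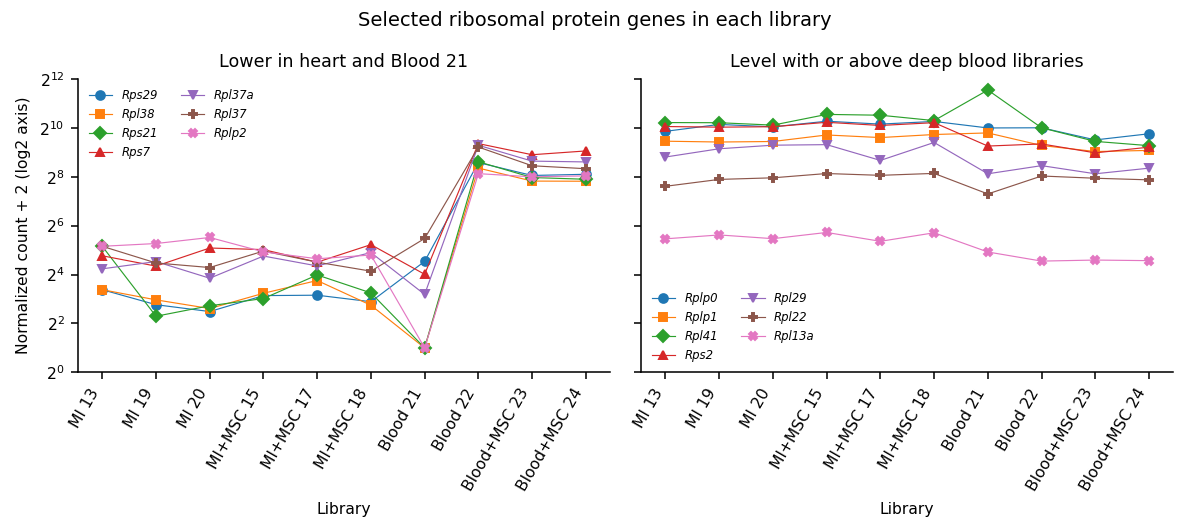
Normalized count plus 2 (log2 axis) of selected ribosomal protein genes in each of the 10 libraries, with members that were low in the heart on the left and members at like or higher levels on the right. On the left the cardiac libraries and Blood 21 lie far below Blood 22, Blood+MSC 23 and Blood+MSC 24, as for Rpl38 at 4.1 to 11.5 in the heart and 223 to 325 in those 3 libraries.

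To describe all members on 1 scale, the mean log2(normalized count + 2) of the 6 cardiac libraries was set against that of Blood 22 and Blood+MSC 23 and 24, with Blood 21 kept apart for its depth and platelet level. Of the 81 members that passed the filter for testing (a mean over all libraries of 10 or more normalized counts), 28 lay below -2 on this log2 difference, 4.0-fold or more lower in the heart (34.6%, compared to 3.29% of all 11549 genes tested). A further 36 lay within 1 of 0, and 14 lay above 0. The 2 that lay above 1 were Rps4l and Rpl35rt, neither of them a core member (2.47%, compared to 22.9% of all genes tested). The median was -1.29 for the members and 0.06 for all genes tested. Both subunits held low members, with 19 of 45 tested 60S members and 9 of 29 tested 40S members below -2, at medians of -1.36 and -1.29.

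Blood 21 had the same pattern as the heart. Each of the 28 members below -2 in the heart was also below -2 in Blood 21, where 38 members reached that level. The 2 differences had the same sign in 72 of 81 members. Neither count was made over all genes, so how common such values are among all genes in Blood 21 is not known. There 1 read equals 7.07 normalized counts, and the part of depth was not tested. The median difference in Blood 21 was -1.7 for the members and -0.24 for all genes tested. Across members the 2 differences correlated at r = 0.85 (Spearman's rho = 0.86, n = 81), compared to r = 0.15 over the 10556 other protein-coding genes tested. Both differences were taken against the same 3 libraries, which adds to either correlation, and members are not independent replicates. Over the core members alone, the log2 profile of Blood 21 correlated with the cardiac libraries at r = 0.868 to 0.918 and with Blood 22 at r = 0.428, while over all genes tested it correlated with Blood 22 at r = 0.841 and with the cardiac libraries at 0.41 to 0.752. The 6 tested core members without a read in Blood 21 were Rpl28, Rpl36a, Rpl38, Rplp2, Rps21 and Rps28.

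**Figure D3:**
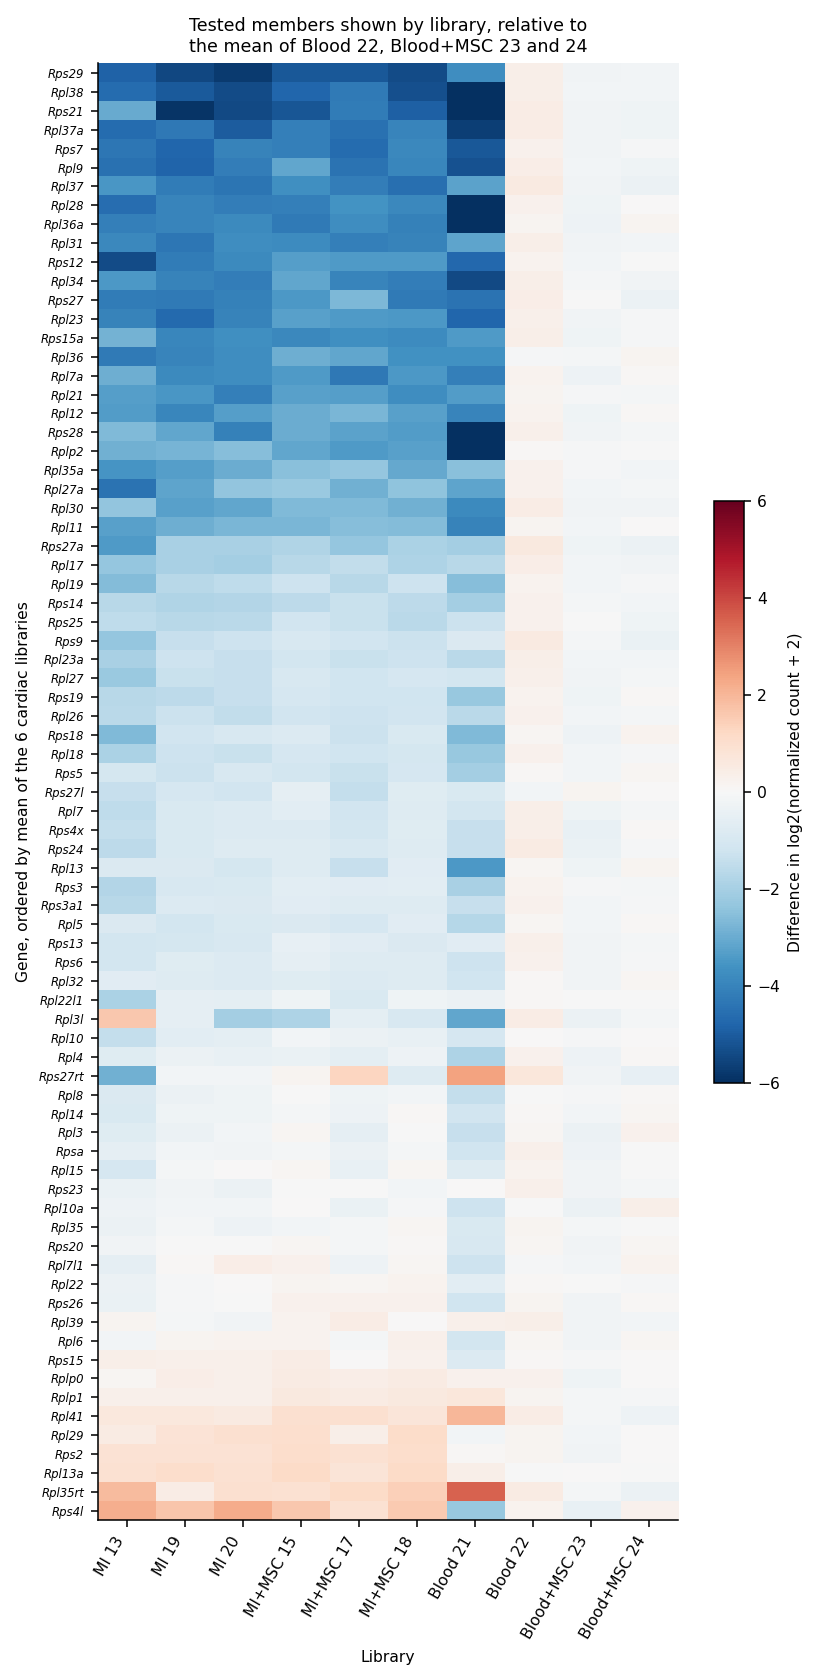
Difference in log2(normalized count + 2) of the tested members shown (rows) in each of the 10 libraries (columns) from the mean of Blood 22, Blood+MSC 23 and Blood+MSC 24, with the colour giving the size and the rows ordered by the mean of the 6 cardiac libraries. The members at the low end, led by Rps29 at -5.27, Rpl38 at -4.88 and Rps21 at -4.76, are low in every cardiac library and in Blood 21.

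The level of the members in the heart ran with a feature of gene structure that the choice of members had not used, and which was looked for after the pattern had been seen. For each gene, the share of all 50-base windows of the coding sequence that cross no exon junction was computed from the annotation. Only the transcript that the annotation marks as canonical was used. This share correlated with the cardiac difference at rho = 0.6 (r = 0.58) and with the Blood 21 difference at rho = 0.56 (r = 0.61), across 81 members. Over the 10556 other coding genes the rho was 0.22 for both differences, and over 785 of these with level and coding length like the members it was 0.19 and 0.36. The 27 members with the lowest share, 23% to 61.0%, had a median difference of -3.59 in the heart and -4.09 in Blood 21. The middle 27, at 61.4% to 67.3%, had medians of -0.95 and -1.87, and the highest 27, at 67.6% to 100%, had medians of -0.25 and -1.18. With windows of 75, 100 and 150 bases the rho for the heart was 0.6, 0.55 and 0.5. Other features of the gene overlap with this share. The length of the longest coding exon ran nearly as closely with the cardiac difference (rho = 0.53) and less closely with that of Blood 21 (rho = 0.43), and the coding length had a rho of 0.34 and 0.15. The number of coding exons (rho = 0.01), the GC content of the coding sequence (rho = 0.18), the number of genomic copies at 95% identity or more (rho = -0.15) and the mean level in the deeper blood libraries (rho = -0.11) had weaker correlations with the cardiac difference.

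Exceptions stood on both sides. Rps29, with 72.5% of windows free of junctions, was the member with the lowest cardiac difference (-5.27), and Rpl37a, with 73.2%, lay at -4.41. Rpl13a, with 44.8%, lay at 0.99, and Rpl41, with 60.7%, at 0.74. Rps21, with the lowest share of all (23%), lay at -4.76. The shares of Rps29 and Rpl37a rest on coding sequences of 285 and 426 bases in the transcripts marked as canonical. Other transcripts of these genes were not compared, so both exceptions could depend on that choice.

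**Figure D4:**
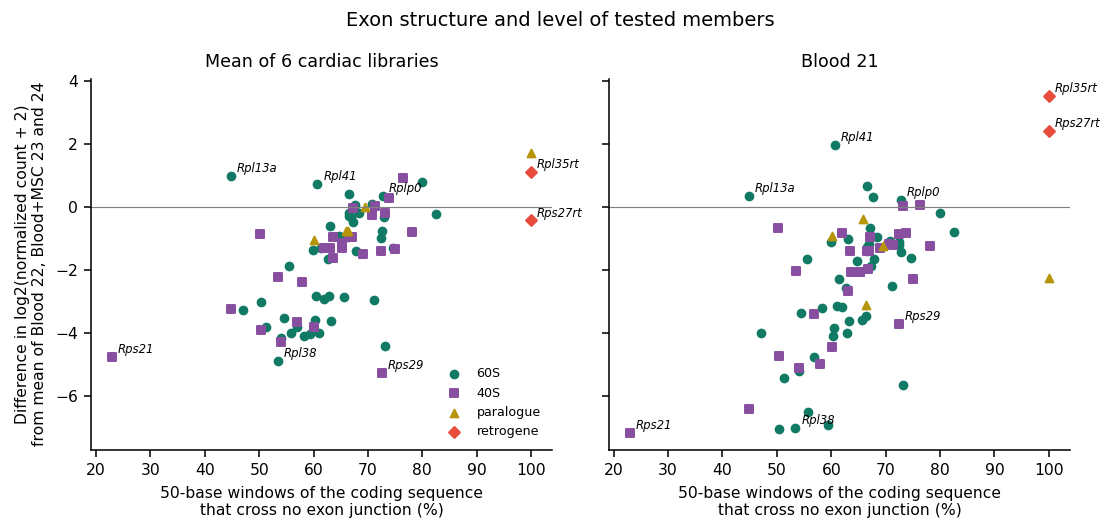
Difference in log2(normalized count + 2) from the mean of Blood 22, Blood+MSC 23 and Blood+MSC 24 (vertical axis) against the share of 50-base coding windows that cross no exon junction (%, horizontal axis), for the mean of the 6 cardiac libraries on the left and for Blood 21 on the right, with 1 point for each of 81 tested members. Members with few junction-free windows lie lower in both, with exceptions such as Rps29 and Rpl13a.

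Other values moved with the low members. Of 8 erythroid marker genes, 7 to 8 were detected in each cardiac library, with a summed level of 42.16 to 255.7 RPM. The sum was 260.4 in Blood 21 (6 detected, with Alas2 among those at 0), 5087 in Blood 22, 1613 in Blood+MSC 23 and 4077 in Blood+MSC 24, so that the 3 libraries with high levels of the low members were also those with the most erythroid RNA. The sum of 9 B cell markers split the libraries in the same way. It was 417.6 RPM in Blood 22, 170.2 in Blood+MSC 23 and 648.7 in Blood+MSC 24. Blood 21 held 133.9 RPM (5 detected) and the cardiac libraries 87.49 to 165.7 (6 to 9 detected), close to Blood+MSC 23. Blood 21 and MI 13 had the fewest reads. MI 20 held 2653258 reads and Blood 22 held 2957308, and Rpl38, for example, was at 4.1 normalized counts in MI 20 and at 325 in Blood 22. Leaving the erythroid, platelet and cardiomyocyte marker genes out of the library totals gave member shares of 1.2% ± 0.104 (SD, n = 6) in the heart and 1.91% ± 0.214 (SD, n = 3) in the 3 deeper blood libraries. The part of erythroid, platelet or B cell RNA in these differences was not tested. Nor was that of depth, of red cell lysis in the cardiac suspension or of RNA quality.

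The comparison of MI with Blood asks how the Ly6G-enriched cells of the heart differ from those of blood without MSC. With all libraries, 10 of 81 members were lower in MI and 1 was higher, called at an adjusted p below 0.05 and a log2 difference no smaller than 0.5, and the median member differed by -0.63 (0.15 over all genes). Over all genes tested, 13.5% were called lower and 21.2% higher, so neither count of members exceeded the share of all genes. The lower members included Rps29 (-3.68 ± 0.86, limma adjusted p = 0.00843), Rpl37, Rps27rt, Rpl31, Rpl36, Rpl35a, Rps9, Rpl17 and Rpl27, and the higher member was Rps4l, a paralogue of Rps4x (3.05 ± 0.66, limma adjusted p = 0.00586). Rps27rt was no longer called without Blood 21, with -2.62 ± 0.90 (limma adjusted p = 0.0428) with all libraries and -1.76 ± 1.12 (limma adjusted p = 0.256) without that library, while the other 9 lower members were called lower in both fits. In 16 of 81 members (19.8%) every MI library lay below both Blood libraries, under the 23.6% of all genes. In 5 (6.17%) every MI library lay above them, under the 31.6% of all genes. Without Blood 21, 49 of 80 members were lower and 1, again Rps4l (1.82 ± 0.50, limma adjusted p = 0.0228), was higher, with a median of -1.68, compared to 13.8% and 15.8% of all genes. Without Blood 22, 4 members were lower and 17 higher, with a median of 0.53, compared to 9.78% and 24.5% of all genes. The count of lower members was 3 without MI 13, 5 without MI+MSC 15, which enters through the shared spread, and 6 without each of MI 20, Blood+MSC 23 and Blood+MSC 24, with 10.4% to 12.4% of all genes called lower in these fits. With scaling to library size, which moved the median of all genes to 0.68, 4 members were lower and 7 higher, compared to 6.91% and 33.9% of all genes. The direction of the median member in this comparison depended on which Blood library was kept.

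After MSC, where both blood libraries were deep, MI+MSC was compared with Blood+MSC. Here 10 of 81 members were lower and 1 was higher in the heart, with a median of -0.94 (0.09 over all genes), compared to 5.85% of all genes lower and 8.23% higher. The lower members were Rps29 (-5.02 ± 0.86, limma adjusted p = 0.00387), Rps7, Rpl37, Rpl31, Rps15a, Rpl7a, Rpl21, Rpl36, Rpl12 and Rpl35a. The higher member was Rps2 (1.09 ± 0.30, limma adjusted p = 0.0353). Of the called lower members, Rps29, Rpl37, Rpl31, Rpl36 and Rpl35a were also called lower in MI than in Blood. In 57 of 81 members every MI+MSC library lay below both Blood+MSC libraries (29.7% of all genes), and in 12 every MI+MSC library lay above them (33.8%).

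The spread in this fit is shared by all groups and includes that between Blood 21 and Blood 22. Without Blood 21, 43 of 80 members were lower in MI+MSC (10.3% of all genes) and 4 were higher (12.8%), namely Rps2, Rps4l, Rpl41 and Rpl13a, at the same fold changes with smaller errors. Rpl38, for example, differed by -4.57 ± 1.47 (limma adjusted p = 0.0596) with all libraries and by -4.57 ± 0.38 (limma adjusted p = 8.95e-05) without Blood 21. Rplp2 differed by -3.23 ± 1.39 (limma adjusted p = 0.14) and by -3.23 ± 0.23 (limma adjusted p = 6.6e-05). Without Blood 22 the counts were again 43 lower and 4 higher, compared to 10.2% and 12.9% of all genes. With 1 Blood+MSC library left, no member was called without Blood+MSC 23 (0.348% of all genes lower, 1.96% higher, 25 members at an unadjusted limma p under 0.05), and 1 was lower without Blood+MSC 24 (1.09% lower, 3.28% higher), while the median stayed at -1.04 and -0.85. Without MI+MSC 15, 6 members were called lower and none higher (2.72% and 5.5% of all genes), and without MI+MSC 18, 4 were lower and none higher (2.12% and 4.08%).

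**Figure D5:**
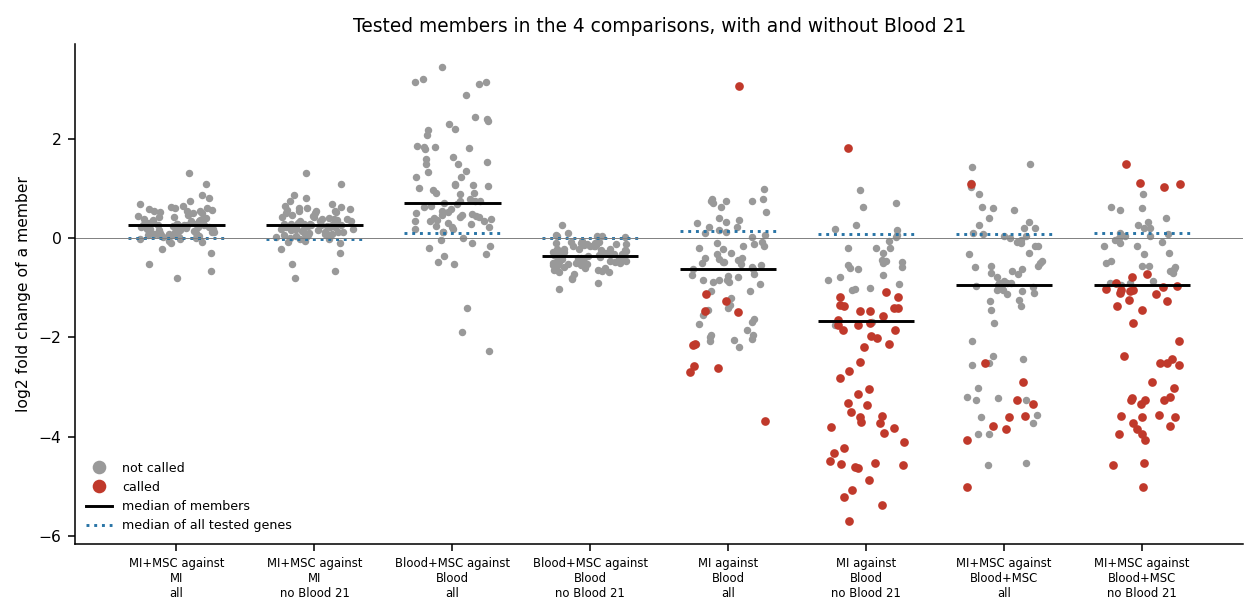
Log2 fold change of each tested member (points) in the 4 comparisons, with all libraries and without Blood 21. The comparison of Blood+MSC with Blood changes from a median of 0.70 to -0.36 when Blood 21 is left out, that of MI with Blood from -0.63 to -1.68, and the comparisons that do not use Blood 21 keep their fold changes.

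The effect of MSC in the heart was small beside this. Comparing MI+MSC with MI, limma called no member higher or lower (0.0% and 0.0% of all genes), and no member had an unadjusted limma p under 0.05. On the recovered reads edgeR called no member (0.0121% of all genes higher, 0.0424% lower), with 2 members at an unadjusted edgeR p under 0.05. DESeq2 called no member either (0.32% of all genes higher, 0.563% lower), with 0 members at an unadjusted DESeq2 p under 0.05. With library weights limma called 1 member higher and 0 lower, compared to 2.81% and 6.72% of all genes. In that fit 13 members had an unadjusted limma p under 0.05. The median member differed by 0.26 (-0.01 over all genes), and 70 of 81 fold changes were positive, from -0.81 for Rpl3l to 1.30 for Rps27rt. In 26 of 81 members (32.1%) every MI+MSC library lay above every MI library, compared to 7.05% of all genes, and in 2 members (2.47%), Rplp2 and Rps4l, every MI+MSC library lay below, compared to 9.6% of all genes. The 26 members were 15 of the 60S and 11 of the 40S subunit, among them Rpl8, Rpl10, Rpl11, Rpl12, Rpl17, Rpl18, Rpl22, Rpl23, Rpl26, Rpl27, Rpl36, Rpl41, Rplp0, Rplp1, Rps2, Rps3, Rps3a1, Rps12, Rps13, Rps14, Rps19, Rps23 and Rps26.

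Marker genes of other cells also differed between these 2 groups without overlap. The sum of 12 endothelial markers, all detected in each cardiac library, was 1948 to 2416 RPM in MI and 394.2 to 885.9 in MI+MSC, and that of 10 mural cell markers, again all detected, was 1003 to 1608 and 308.5 to 862.7. The sum of 11 platelet markers, of which 9 to 11 were detected, was 410.5 to 483.3 in MI and 549.6 to 1173 in MI+MSC, and that of 9 B cell markers, of which 6 to 9 were detected, was 87.49 to 120.6 and 127.6 to 165.7. Among the platelet markers Clec1b was at 0 in MI 13 and MI+MSC 17 and Gp1ba in MI 13, and the B cell markers at 0 in MI 13 included Cd79a and Fcmr. The part of these cells in the members' difference was not tested.

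Rps3, a protein at the mRNA entry site with a further role in DNA repair, had normalized counts of 235, 418 and 429 in MI, compared to 513, 505 and 513 in MI+MSC. Rps12, a further 40S protein, had 8.4, 21.1 and 28.3 in MI, compared to 41.2, 39.0 and 38.0 in MI+MSC. The groups did not overlap for either gene, but MI 13 was well below the other MI libraries in both. The log2 fold change was 0.55 ± 0.47 for Rps3 (limma adjusted p = 0.723) and 1.09 ± 0.91 for Rps12 (limma adjusted p = 0.717). For Rplp0 it was 0.22 ± 0.29 (limma adjusted p = 0.806), and for Rpl10, a protein added late in 60S maturation, 0.56 ± 0.35 (limma adjusted p = 0.662). Each of these errors was large compared to the difference.

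The count of members without overlap depended on scaling. With scaling to library size, under which the median of all genes moved to -0.15 and that of the members to 0.13, 11 members lay higher in every MI+MSC library and 2 lower, compared to 4.43% and 12.2% of all genes. Without MI 13 the counts were 30 higher and 2 lower, compared to 10% and 14.2% of all genes. With TMM scaling the member median was 0.54, with 0.27 over all genes. The member median thus lay above that of all genes under each of the 3 scalings, and none of the 3 gave a call for a single member.

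In blood the result of the MSC comparison turned on 1 library. Comparing Blood+MSC with Blood, no member was called (0.0% of all genes in either direction), 4 members had an unadjusted limma p under 0.05, and the median was 0.70 (0.11 over all genes). The largest fold changes were those of Rplp2 (3.45 ± 1.53, limma adjusted p = 0.672) and, downwards, of Rpl35rt (-2.28 ± 0.91, limma adjusted p = 0.672), Rps27rt (-1.89 ± 0.99, limma adjusted p = 0.684) and Rpl41 (-1.41 ± 0.49, limma adjusted p = 0.672). Without Blood 21 the median was -0.36, 7 of 80 fold changes were positive, and Rplp2 differed by -0.11 ± 0.31. Without Blood 22, 46 members were called higher and 2, Rpl41 and Rpl35rt, lower, compared to 9.43% and 3.38% of all genes, with a median of 1.65. With 2 Blood libraries that differ in this way the data give no single direction for MSC in blood.

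The interaction, which asks whether the MSC difference was larger in the heart than in blood, called no member (0.0% of all genes) with a median of -0.48 (-0.12 over all genes), and 2 members had an unadjusted limma p under 0.05. Without Blood 22 it called 37 members, compared to 9.25% of all genes, with a median of -1.29. Without Blood 21 it called none, with 5 members at an unadjusted limma p under 0.05 and a median of 0.62. The median of the interaction thus changed sign with the Blood library that was kept, as did that of the MSC difference in blood.

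Levels per length were compared as normalized counts per kb of coding sequence. The length was that of the transcript marked as canonical, 138 bases for Rpl41, and the values change with the transcript chosen. In the 6 cardiac libraries the highest members were Rpl41 at 9270 ± 1170 (SD, n = 6), Rplp1 at 2200 ± 215, Rps2 at 1250 ± 77.4, Rplp0 at 1170 ± 121 and Rpl29 at 1160 ± 227. In the 3 deeper blood libraries they were Rpl41 at 5630 ± 1560 (SD, n = 3), Rps9 at 2080 ± 741, Rps27 at 2040 ± 537, Rps25 at 1950 ± 348 and Rplp1 at 1630 ± 152. Rps9 and Rps25 reached 789 ± 209 and 692 ± 95.9 in the heart, so the order differed between the tissues. The order from Rps2 to Rpl29 in the heart and from Rps9 to Rplp1 in blood is not resolved beyond these SDs, and counts include reads on untranslated parts, which weigh most in the shortest coding sequences such as that of Rpl41. Averaged over all 10 libraries the lowest were Rpl36al at 1.29, Rps23rg1 at 4.31, Rpl27rt at 4.6, Rpl39l at 9.28 and Rpl24 at 10.1.

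The sum over the core members was also spread unevenly. The 5 leading genes took 28.5% to 33.6% of core counts in the cardiac libraries, 44.7% in Blood 21 and 13.3% to 14.9% in the 3 deeper blood libraries. In the heart these were Rpl41, Rplp0, Rps2, Rplp1 and Rpsa, the laminin receptor precursor, in each of the 6 libraries. Rpl41 alone took 7.87% of core counts on average in the heart, 21.7% in Blood 21 and 2.44% in the deeper blood libraries, where Rps9 came first with 3.78%.

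Rps6, the 40S protein that the S6 kinases phosphorylate, had 176, 232 and 214 normalized counts in the MI libraries, 264, 223 and 221 with MSC in the heart, 163 in Blood 21, 468 in Blood 22, and 334 and 366 for Blood+MSC. Rps19 and Rps14, both linked to human anaemias when 1 copy is lost, had 109 to 174 and 153 to 207 in the heart, 70.7 and 127 in Blood 21, and 288 to 408 and 477 to 641 in the deeper blood libraries. These genes lay lower in the heart, without overlap with the deeper blood libraries. Rpl29 had 404 to 673 in the heart, 276 in Blood 21 and 276 to 348 in the deeper blood libraries, so every cardiac library lay above every blood library. Rpl39, a small protein of the exit tunnel, had 261, 213 and 199 in the MI libraries, 272, 315 and 235 with MSC in the heart, 290 in Blood 21, 303 in Blood 22, and a mean of 206 ± 6.9 (SD, n = 2) for Blood+MSC. The MI and MI+MSC libraries overlapped for Rpl39, while every MI library lay below both Blood libraries and every MI+MSC library above both Blood+MSC libraries. Rpl22, which also binds RNA outside the ribosome, had 193 to 279 in the heart and 155 to 259 in blood, and its paralogue Rpl22l1 had 8.4 to 30.5 and 28.3 to 38.3. None of these genes was called in any of the 4 comparisons with all libraries.

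Among the paralogues, Rps4l was the member with the largest rise in the heart. It had 42.0, 28.8 and 42.2 normalized counts in the MI libraries, 27.7, 16.1 and 26.4 with MSC in the heart, no read in Blood 21, 9.1 in Blood 22, and 5.0 and 9.3 for Blood+MSC. Every cardiac library lay above every blood library, and the MSC-treated hearts lay below the untreated. The absence of reads in Blood 21 allows up to 21.2 normalized counts (3 reads), above the 16.1 of MI+MSC 17. The lowest MI value, 28.8, lay close to the highest MI+MSC value, 27.7, and MI 13 rests on 5 reads. Rps27l, a paralogue of Rps27 that p53 induces, had 50.4, 66.3 and 60.7 in the MI libraries, 93.3, 48.2 and 80.7 with MSC in the heart, 70.7 in Blood 21, 120 in Blood 22, and 151 and 136 for Blood+MSC, a smaller difference than that of Rps27 itself, which had 24.4 to 75.8 in the heart and 393 to 660 in the deeper blood libraries. Rpl3l, a striated muscle form of Rpl3, had 50.4, 9.6 and 2.1 in the MI libraries, 2.7, 9.2 and 6.8 with MSC in the heart, no read in Blood 21, 21.4 in Blood 22, and 11.3 and 14.0 for Blood+MSC. The cardiac libraries did not lie above blood for this gene, and its highest value rests on 6 reads of MI 13.

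The retrogenes are copies without introns, and reads can be shared between them and their parent genes. Rpl35rt had 56.5 normalized counts in Blood 21, compared to 1.9 to 16.8 in every other library, and Rps27rt had 77.7 there, compared to 0.0 to 34.4. Both were thus highest in the library in which most core members were lowest. Of 69 rows for ribosomal protein pseudogenes, which are not members, 7 passed the filter, and 1 of them, Rpl17-ps10, was called lower in MI than in Blood (-1.72 ± 0.56, limma adjusted p = 0.0351), with no other call in any of the 4 comparisons. Without Blood 21 this gene differed by -0.95 ± 0.61 (limma adjusted p = 0.258), and 4 of the 6 pseudogenes then tested (Rpl19-ps11, Rpl38-ps2, Rps6-ps4 and Rpsa-ps10) were called higher in MI+MSC than in Blood+MSC.

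The 8 members that were not tested were Rpl24, Rps10, Rps16, Rpl27rt, Rpl36al, Rpl39l, Rps19bp1 and Rps23rg1. Rpl24 had at most 11.5 normalized counts in any library, Rps10 at most 13.5 and Rps16 at most 25.2, although each encodes a core protein. Another annotated gene on the same strand overlaps 83.4% of the coding bases of Rpl24, 92.1% of those of Rps10 and 95.3% of those of Rpl36al, while Rps16 has no such overlap and 3 copies in the genome at 95% identity or more. Counting by gene can leave such reads unassigned, so the levels of these genes are uncertain. The same holds for Rpl13a, with an overlap of 97.5%.

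Rpl13a and Rps18 deserve their own account, since the human RPL13A and RPS18 served as PCR reference genes in the study's cell culture work. Rpl13a had 42.0, 47.1 and 42.2 normalized counts in the MI libraries, 50.7, 39.0 and 50.2 with MSC in the heart, 28.3 in Blood 21, 21.4 in Blood 22, and 22.1 and 21.7 for Blood+MSC, so every cardiac library lay above every blood library. The difference of MI+MSC from Blood+MSC was 1.02 ± 0.31 with all libraries (limma adjusted p = 0.0505) and 1.02 ± 0.26 without Blood 21 (limma adjusted p = 0.0205). Rps18 had 50.4, 146 and 166 in the MI libraries, 185, 133 and 172 with MSC in the heart, 49.5 in Blood 21, 350 in Blood 22, and 262 and 371 for Blood+MSC. The cardiac libraries lay below the 3 deeper blood libraries, and MI 13 and Blood 21, the shallowest libraries, had the lowest values. MSC changed neither gene by a call in the heart, with differences of 0.08 ± 0.28 for Rpl13a (limma adjusted p = 0.928) and 0.58 ± 0.62 for Rps18 (limma adjusted p = 0.765).

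Some ribosomal protein genes fall outside the symbol rule. Fau, which carries a 40S protein behind a ubiquitin-like part, had 118, 271 and 255 normalized counts in the MI libraries, 516 in Blood 21 and 1361 in Blood 22, and was lower in MI by 2.05 ± 0.47 on the log2 scale (limma adjusted p = 0.00735). Rack1, a signalling scaffold on the 40S head, had 235, 257 and 320 in the MI libraries, 127 in Blood 21 and 622 in Blood 22, and was not called with all libraries (-0.07 ± 0.54, limma adjusted p = 0.928). Without Blood 21, Rack1 was lower in MI by 1.21 ± 0.40 on the log2 scale (limma adjusted p = 0.0443) and Fau by 2.75 ± 0.49 (limma adjusted p = 0.00319).

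Other genes of translation, from lists chosen for this tissue, are given beside the members. Over all genes tested, 21.2% were called higher and 13.5% lower in MI than in Blood and 8.23% and 5.85% in MI+MSC than in Blood+MSC, compared to 15.8% and 13.8%, and 12.8% and 10.3%, without Blood 21. Of 50 tested ribosome biogenesis genes, which act in the nucleolus to make and assemble the subunits, 25 rose and 2 fell between Blood and MI, at a median of 1.21 (0.15 over all genes). Without Blood 21 the counts were 9 higher and 1 lower. After MSC, 5 (Ddx21, Gnl3, Ltv1, Ncl and Nhp2) were higher in MI+MSC than in Blood+MSC and none lower, and without Blood 21 the counts were 8 and 1.

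Of 37 initiation factors, 4 were higher and 1, Eif3k, lower in MI than in Blood, and Eif3k alone was called, again lower, in MI+MSC compared to Blood+MSC. The balance turned without Blood 21, with 3 higher and 4 lower in the first comparison and none higher and 6 lower (Eif2s3x, Eif3e, Eif3i, Eif3k, Eif3m and Eif4g3) in the second. Of 8 elongation factors only Eef2, which moves the ribosome along the mRNA, was called with all libraries, higher in MI than in Blood by 1.27 ± 0.33 (limma adjusted p = 0.013). Without Blood 21 the Eef2 difference was 0.91 ± 0.37 (limma adjusted p = 0.0907) and no longer called. Eef1b2, a subunit of the exchange factor that recharges Eef1a1, was then lower in MI by 1.74 ± 0.37 on the log2 scale (limma adjusted p = 0.00804), after a difference of 0.05 ± 0.76 with all libraries. Eef1e1, a part of the aminoacyl-tRNA synthetase complex, was then higher by 2.37 ± 0.41 (limma adjusted p = 0.00303), and both genes were also called in the same directions in MI+MSC compared to Blood+MSC without Blood 21.

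Of 11 other TOP mRNAs, Hnrnpa1 was higher and Tpt1 and Cox7a2l lower in the MI libraries, and Tpt1 was lower in MI+MSC. Without Blood 21 the counts were 2 higher and 3 lower in MI and 1 higher and 2 lower in MI+MSC, with Naca and Ybx1 added to the called genes in both. Of 23 tested regulators of mTORC1 and TOP mRNAs, 6 were higher and 4 lower in MI than in Blood, including Larp1 at 1.22 ± 0.36 (limma adjusted p = 0.0235) and Eif4ebp1 at -1.63 ± 0.35 (limma adjusted p = 0.00533), and after MSC 1 was higher and 2 lower. Without Blood 21 these counts were 3 and 5, and 1 and 3, and Larp1 and Eif4ebp1 were again called in MI. Of 14 snoRNA host genes, 4 were higher in MI (2 without Blood 21) and 1 in MI+MSC. None of these lists held a call in either MSC comparison, with or without Blood 21.

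The genes outside the rule whose log2 level over the 10 libraries was most like the mean of the tested core members were Arap1 (r = 0.992), Xrn2 (0.986), Cib1 (0.985), Snrnp200 (0.983), Psmd4 (0.981), Snrnp70 (0.981), Psma7 (0.978), Rmc1 (0.978), Ube3b (0.976) and Fkbp15 (0.975). These correlations describe 10 libraries that fall into separate clusters by tissue and Blood 21.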

How the data were processed

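The deposited tables hold, for 28185 mouse genes and 10 libraries, counts that the authors divided by DESeq2 size factors, a normalized signal. Per the labels and the study's methods, rRNA-depleted stranded paired-end reads were trimmed (Trimmomatic), PCR duplicates were removed (Picard), reads were mapped to GRCm39 (STAR) and counted by gene (featureCounts), and mitochondrial reads were left out. Removing duplicates and unassigned overlapping reads can lower short abundant genes. Every value was a whole number of reads within 0.1 read, so reads were recovered, 148594 to 8602711 per library. log2(normalized count + 2) was fitted with limma 3.58.1 (trend) in R 4.3.3, with 1 mean per group over all 10 libraries, for 11549 genes with a mean of at least 10. Calls needed a Benjamini-Hochberg adjusted p below 0.05, over all genes, and a log2 difference of 0.5 or more in size. The interaction needed the adjusted p alone. Fold changes on this scale understate those of low genes. edgeR 4.0.16 and DESeq2 1.42.0 on recovered reads, other scalings, filters, pseudocounts, weights and left-out libraries were alternatives. The script was tested on simulated data. Members and lists were chosen with earlier results of these data known. Named genes were preset core members and all paralogues, the most extreme and called members of each comparison, the extremes per kb and the 10 most alike genes. Members without overlap, without reads or not tested were named in addition, after their values were seen. A few genes are not reported here, and their rows were left out of the colour map of members by library; all counts, medians and tests include them.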

Additional observations from a re-analysis of the deposited data

Results flagged for a closer look

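For 5 members every MI+MSC library lay above every MI library while every Blood+MSC library lay below every Blood library (6.17% of 81 tested), compared to 1.28% of all genes tested, and for 0 members (2.49% of all genes) the directions were the opposite. The difference between the 2 MSC effects, on the log2 scale, was 1.69 for Rpl41, 0.58 for Rplp0, 0.72 for Rplp1, 0.34 for Rps2 and 0.59 for Rps23. These values include Blood 21. Rpl41 had 2982 normalized counts in Blood 21, 1021 in Blood 22, and 694 and 615 for Blood+MSC, so the size of its difference depends on Blood 21. Over all tested members the median of the interaction was -0.48 with Blood 21 and 0.62 without it. The limma interaction test called none of them, with an adjusted p of 0.63 and an SE of 0.63 for Rpl41.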

How the results depend on the processing

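No paired analysis was possible because the labels do not tie libraries to animals. Blood was drawn from the mice before their hearts were taken, so heart and blood libraries may share animals. They were treated as independent. Of 22 called gene results, recomputed under 440 combinations with an alternative, 324 kept their side of the threshold, 116 lost it and 0 changed direction. The 8 recomputed shares of reads moved by less than the spread between libraries. The genes left out or added held few reads, so this outcome was nearly fixed beforehand. Pseudogene rows held at most 0.0428% of a library, and no marker list left out held more than 21370 RPM. It does not test whether other cells supplied the members' reads. Each count of members from a single fit is followed by the share of all genes called in the same direction in that fit. For the ranges over left-out libraries, the percentages in brackets are the range of that share over the same fits. Their ends need not come from the fit that gave the count, and the interaction range stands without a share. Members called lower in MI than in Blood (10 as reported, 13.5%) were 35 with DESeq2 (9.25%), 39 with edgeR (13.8%), 5 with TMM scaling (7.59%), 4 with library size scaling (6.91%), 1 with only the compared groups fitted (5.09%), 5 with library weights (5.52%), and 52 without MI 13 and Blood 21 (19.3%), an alternative chosen after seeing the data. Members called higher (1 as reported, 21.2%) were 2 with DESeq2 (14.1%), 7 with library size scaling (33.9%) and 2 without those 2 libraries (19.9%). Between MI+MSC and Blood+MSC, members called lower (10 as reported, 5.85%) were 30 with DESeq2 (5.11%), 41 with edgeR (14%), 23 with TMM scaling (7.48%), 20 with no filter (1.81%), 47 with only the compared groups (16.7%), 20 with a pseudocount of 10 (6.43%), 49 with library weights (21.2%) and 52 without those 2 libraries (19.9%). Members called higher (1 as reported, 8.23%) were 4 with DESeq2 (11.6%), 0 with TMM scaling (4.33%), 2 with library size scaling (8.82%), 0 with no filter (2.81%), 5 with only the compared groups (18.1%), 2 with a pseudocount of 10 (7.62%), 8 with library weights (25.3%) and 6 without those 2 libraries (21.9%). In Blood+MSC compared to Blood, DESeq2 called 1 member lower (1.15%), and the median was -0.36 without those 2 libraries. In MI+MSC compared to MI, library weights called 1 member higher (2.81%). Leaving out each library in turn, Blood+MSC compared to Blood gave medians of -0.36 to 1.65, 0 to 46 members higher (0.0% to 9.43%) and 0 to 2 lower (0.0% to 3.38%). MI compared to Blood gave medians of -1.68 to 0.53, 1 to 17 higher (15.8% to 24.5%) and 3 to 49 lower (9.78% to 13.8%). MI+MSC compared to Blood+MSC gave medians of -1.04 to -0.85, 0 to 4 higher (1.96% to 12.9%) and 0 to 43 lower (0.348% to 10.6%), and the interaction 0 to 37 members. MI+MSC compared to MI gave medians of 0.18 to 0.29 and no call. The cause of these changes was not tested. Members near the floor of 3 reads, 25.2 normalized counts in MI 13 and 21.2 in Blood 21, are limited by depth.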
